A study of Mus musculus with 12 samples.

Results

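Gene expression in the mouse prefrontal cortex was compared between ZT9 and ZT3, that is, between late and early rest phase. Zeitgeber time (ZT) counts hours from lights on, so both times lie in the light phase, when mice mostly sleep, and they are 6 hours apart. The comparison rests on 6 of the 12 arrays of the series, 3 at ZT3 and 3 at ZT9, and on all probe sets except the control probe sets of the array. Each array held RNA from the dissected prefrontal cortex of 1 C57BL/6J mouse, an inbred strain, and every mouse was 10 weeks old on arrival and spent 2 weeks in a cycle of 12 hours of light and 12 hours of dark. The groups differ by the time of sampling, and no allele or treatment is given for any of them. The other 6 arrays, from mice in the dark phase at ZT15 and ZT21, 3 each, entered the estimate of the spread and a comparison of the rest phase with the active phase. Values are log2 of the deposited GCRMA intensities, a scale on which a difference of 1 is a 2-fold change, and every difference is ZT9 minus ZT3 unless stated otherwise.

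Of 45037 probe sets, 24075 had a mean log2 intensity of at least 5 over the 12 arrays and were tested, and they cover 11639 genes with 1 symbol. A probe set was called when its adjusted p in limma's moderated test was under 0.20, the false discovery rate that the study used. The calls at an adjusted p under 0.05 are given beside it. The tissue is a mixture of cell types, so fewer cells of a type and less RNA per cell cannot be told apart.

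The molecular clock is a loop of transcription. The activators CLOCK and BMAL1 (the product of Arntl), or NPAS2 in place of CLOCK in the forebrain, bind E-boxes and drive the Per and Cry genes, whose proteins return to the nucleus and repress the activators. A second loop runs through the receptors of the REV-ERB and ROR families, which act on Arntl, and clock output passes through the PAR bZIP factors DBP, TEF and HLF, which bind D-boxes. In the cortex, the same cells also express genes that follow neuronal activity, and these depend on waking and sleep as well as on clock time.

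The promoter sequences of the genes called in this comparison were searched for 4 short motifs, and those that hold one are shown here because they let the changed genes be set beside the elements that clock, activity and folding factors bind. The motifs were the E-box CACGTG, the D-box TTATGTAA or TTACGTAA, the cyclic AMP response element (CRE) TGACGTCA, and the endoplasmic reticulum stress element (ERSE) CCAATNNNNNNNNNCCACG. Both strands were read over the 250 bases before each start in RefSeq (GRCm38.p6), and the motifs do not overlap one another in the sequences shown. Of the 19 genes called, 14 are in the table. Per2, Nptx2, Bhlhe40, Plbd2 and Thra are not among them. An E-box stood in 4 of the 14 genes, Ciart, Tspan4, Per1 and Coq10b, against 6.86% of the 27025 genes in the table. A D-box stood in 1, Coq10b, against 1.10%, a CRE in 1, Sstr2, against 1.77%, and the ERSE in 1, Hspa5, against 0.130%. Each sequence runs 5′ to 3′ along the strand of the gene, with 30 bases on either side of the outermost motifs unless the start is nearer, and capitals mark the motifs. A match describes these letters and is not evidence of a bound site. Genes named below that were not called hold such motifs too, such as the E-box in Cry1, Tef, Dusp1, Sgk1, Tac1 and Atp5pb.
Ciart: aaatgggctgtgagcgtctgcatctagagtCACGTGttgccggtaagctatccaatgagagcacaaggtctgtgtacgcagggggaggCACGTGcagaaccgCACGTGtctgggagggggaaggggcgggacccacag
Per1: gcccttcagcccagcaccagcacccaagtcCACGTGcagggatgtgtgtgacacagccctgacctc
Coq10b: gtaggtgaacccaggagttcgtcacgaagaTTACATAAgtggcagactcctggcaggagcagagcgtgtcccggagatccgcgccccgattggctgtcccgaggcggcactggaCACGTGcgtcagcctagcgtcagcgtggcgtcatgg
Tspan4: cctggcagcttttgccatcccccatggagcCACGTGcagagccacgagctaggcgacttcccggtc
Sstr2: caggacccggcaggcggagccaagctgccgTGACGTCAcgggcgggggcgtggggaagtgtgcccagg
Hspa5: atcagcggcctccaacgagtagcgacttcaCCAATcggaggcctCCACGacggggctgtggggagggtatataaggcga
The Ciart sequence, at chr3:95882237-95882374 on the minus strand, holds 3 E-boxes, at 116, 58 and 44 bases before the start. In Per1 the E-box at chr11:69098753-69098818, plus strand, lies 166 bases before 1 of the starts that RefSeq lists. The Coq10b sequence at chr1:55052578-55052727, plus strand, carries a D-box, read here on the opposite strand, and an E-box, 162 and 78 bases before the start. The E-box of Tspan4, at chr7:141476299-141476364 on the plus strand, also lies before 1 of several listed starts, by 51 bases. The CRE of Sstr2, at chr11:113619239-113619306 on the plus strand, lies 58 bases before the start. The ERSE of Hspa5, at chr2:34771995-34772073 on the plus strand, lies 65 bases before it. Neither Dbp nor Homer1 held any of the 4 motifs in these 250 bases.

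Before the results, the state of the 6 arrays matters. Mean intensity was 344 to 356 on the ZT3 arrays, but 398, 394 and 347 on ZT9 replicates 1, 2 and 3, so the first 2 ZT9 arrays were brighter and the third was not. The third also stood apart by choroid plexus markers: Ttr, the thyroxine carrier secreted by the choroid plexus, read 14.82 in it against 9.22 to 10.94 on the other 5, and Kcnj13 read 8.13 against 5.47 to 5.63. The 3 choroid plexus markers measured, of 10 listed, had a median difference of 0.77, which was -0.003 without this array, and whether this tissue touches other genes was not tested. Slc17a7, the vesicular glutamate transporter of cortical excitatory neurons, read 12.17 at ZT3 and 12.26 at ZT9. The 11 markers of these neurons measured had differences of -0.42 to 0.45, 9 means higher and 2 lower, and a median of 0.16 (0.061 without ZT3 replicate 3). The mean level of 8 striatal markers was 7.99 to 8.34 at ZT3 and 8.52, 8.09 and 8.59 at ZT9. Their median difference was 0.30, with 6 means higher and 2 lower. It was 0.16 without ZT9 replicate 3 and 0.39 without ZT9 replicate 2. Over 11639 genes, each taken by its brightest probe set, the median difference was 0.10, with 8162 means higher (70.1%) and 3477 lower at ZT9, and it was 0.01 after quantile normalization.

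From ZT3 to ZT9, the probe sets with the smallest adjusted p were 1 of Homer1, which fell, and both of Dbp, that of Ciart, 1 of Wdr6 and 1 of Per2, which rose. In all, 24 probe sets were called, 0.0997% of those tested, 20 of them higher (0.0831%) and 4 lower (0.0166%) at ZT9, and at an adjusted p under 0.05 there were 11 (0.0457%), 10 higher and 1 lower. They stand for 19 genes with 1 symbol, 1 probe set that carries the symbols of Rbm3 and a pseudogene of it, and 2 probe sets with no symbol here. In each of the 24, the 3 ZT9 mice lay wholly on one side of the 3 ZT3 mice, which was so for 3184 of all tested probe sets in the higher direction (13.2%) and 966 in the lower (4.01%). The share of higher calls, 83.3%, was 62.8% after quantile normalization, with 59 higher and 35 lower, and 63.5% after median centring, with 40 and 23. The count depended on single mice: it was 7 without ZT3 replicate 2, 11 without ZT3 replicate 3, 3707 without ZT9 replicate 3 and, through the estimate of the spread, 102 without ZT15 replicate 3 and 16 without ZT21 replicate 1. All 24 remained called without ZT9 replicate 3 and without ZT15 replicate 3.

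**Figure D1:**
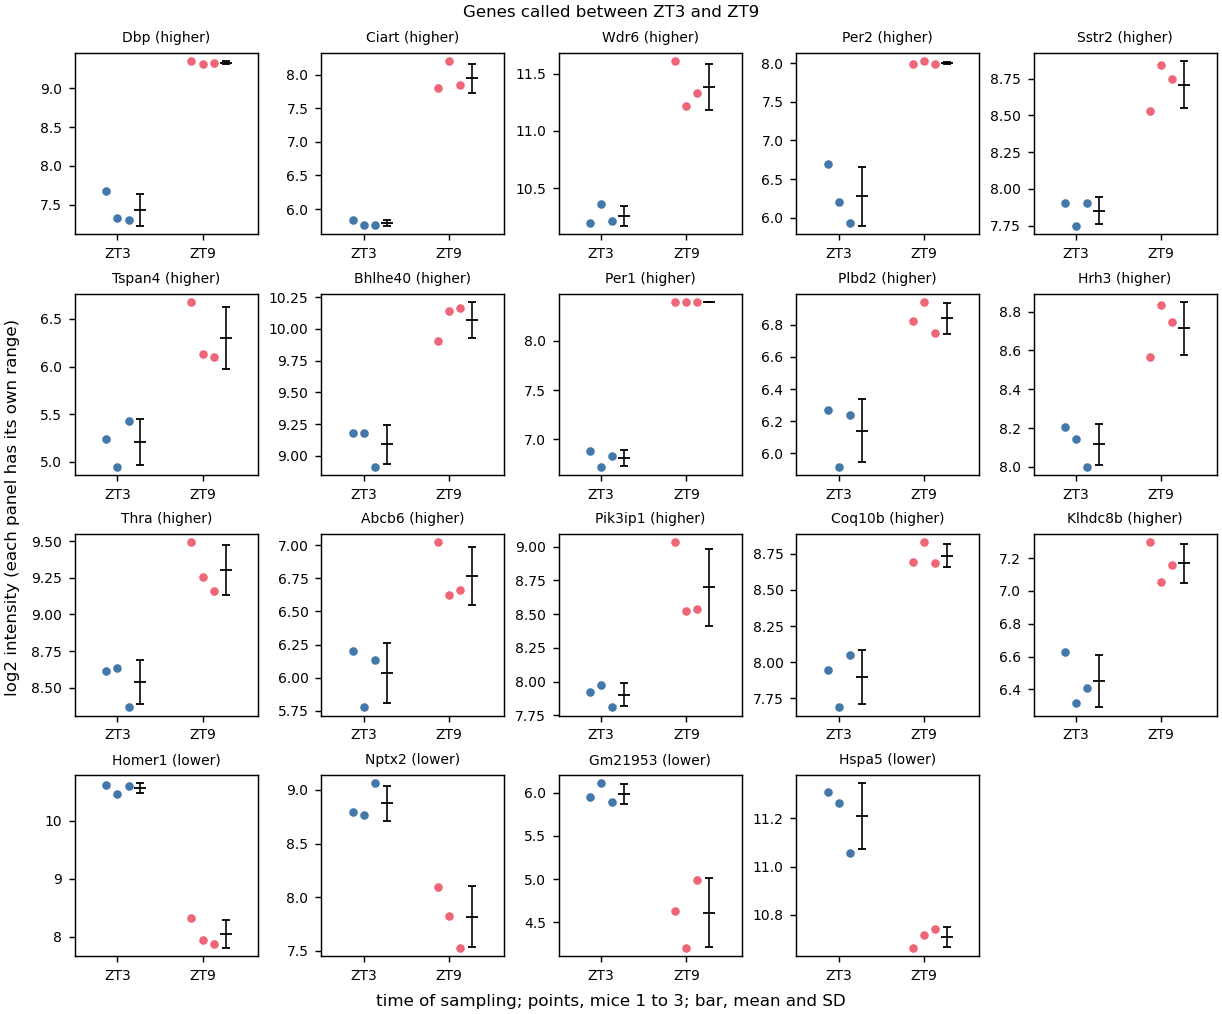
Log2 intensity of the 19 genes called between ZT3 and ZT9, 1 panel per gene by the called probe set with the smallest p, with the 3 ZT3 mice in blue, the 3 ZT9 mice in red and the mean and SD of each group in black. Each panel has its own range. The groups do not overlap in any panel, and Homer1, Nptx2, Gm21953 and Hspa5 are the 4 that are lower at ZT9.

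Among the repressors of the clock, Per2 and Per1 rose. Per2 read 6.69, 6.21 and 5.93 in the ZT3 mice and 7.99, 8.02 and 7.99 in the ZT9 mice. The ZT9 mice were nearly identical and the ZT3 mice were spread below them. The difference of 1.73 ± 0.20 (standard error) is a 3.31-fold rise, with a 95% interval of 2.45 to 4.49 and an adjusted p of 0.00803 in limma. Another tested Per2 probe set had a difference of 0.86 and an adjusted p of 0.411. Per1, the Period gene that light and hormones also induce, read 6.88, 6.72 and 6.83 at ZT3 and 8.40, 8.39 and 8.40 at ZT9. It rose 3.00-fold (95% interval 2.04 to 4.41, adjusted p = 0.0856), and the call was lost without any 1 of the ZT3 mice or of ZT9 replicates 1 and 2, with adjusted p up to 0.408. Per3 was not called. Its values were 7.49, 7.14 and 7.23 at ZT3 and 7.71, 8.34 and 7.77 at ZT9, which do not overlap, with a difference of 0.65 and an adjusted p of 0.333. Its other 4 tested probe sets, all dimmer, differed by 0.32, 0.08, -0.03 and 0.10. Its promoter sequence, at chr4:151044786-151044900 on the minus strand, holds 2 D-boxes, and it is shown because DBP, described next, binds that element. Inhba, also not called, holds a D-box too and had a difference of -0.48. Whether DBP acts on either gene was not tested.
Per3: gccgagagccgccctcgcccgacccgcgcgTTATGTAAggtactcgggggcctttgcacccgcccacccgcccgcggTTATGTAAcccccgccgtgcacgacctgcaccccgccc
The cryptochromes were not called, with differences of 0.23 for Cry2 and 0.18 for Cry1 and adjusted p of 0.411 and 0.601. Of the 5 Per and Cry genes, 2 were called higher and 0 lower, against 0.103% of all genes called higher, and their median difference was 0.65, which is the value of the brightest Per3 probe set. With each gene taken as the mean of its probe sets the median was 0.23.

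Of the output factors, Dbp, Ciart and Bhlhe40 rose. Dbp, the PAR bZIP factor whose transcript is a standard read-out of clock phase, was called with both of its probe sets. The first read 7.67, 7.33 and 7.30 at ZT3 and 9.35, 9.31 and 9.32 at ZT9, a 3.71-fold rise (95% interval 3.08 to 4.47, adjusted p = 5.25e-05). The other, about 2 units brighter, rose from 9.36 ± 0.17 to 11.52 ± 0.26 (SD, n = 3), 4.46-fold. Ciart, also known as CHRONO, encodes a repressor of CLOCK and BMAL1. Its values were 5.84, 5.76 and 5.77 at ZT3 and 7.81, 8.20 and 7.84 at ZT9, so it went from near the filter to well above it, 4.47-fold (3.35 to 5.96, adjusted p = 0.000634). Bhlhe40, also called DEC1, another E-box repressor, read 9.18, 9.18 and 8.92 against 9.90, 10.14 and 10.16. It rose 1.97-fold (1.55 to 2.50, adjusted p = 0.0856), a call lost without any 1 of the ZT3 mice or ZT9 replicate 2, with adjusted p up to 0.457. The other PAR bZIP factors were not called. Tef had a difference of 0.38 with no overlap of the groups and an adjusted p of 0.358, and Hlf one of 0.13, which was -0.06 without ZT9 replicate 2. Nfil3, which encodes a repressor that binds the same D-box, had a difference of -0.37 and an adjusted p of 0.456. Of 6 output factors measured, 3 were called higher and 0 lower, where 0.103% and 0.0172% of all genes were.

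The activators and the second loop gave no calls. Arntl was lower in every ZT9 mouse, 7.66, 7.41 and 7.16 against 8.05, 8.23 and 7.84, a difference of -0.63 ± 0.15 with an adjusted p of 0.296. It was called with an adjusted p under 0.20 after quantile normalization, median centring or array weights, and without ZT9 replicate 3. In that order, these settings called 94, 63, 6855 and 3707 of the 24075 probe sets. Npas2 differed by -0.17 and Clock by -0.07, and the sign of Clock turned to 0.10 without ZT9 replicate 3. Among the receptors, Nr1d1, which encodes REV-ERB alpha, read 7.03, 7.17 and 7.17 at ZT3 and 7.43, 8.57 and 8.36 at ZT9. The groups did not overlap, but ZT9 replicate 1 lay close to the ZT3 mice, and the difference of 1.00 ± 0.30 had an adjusted p of 0.358. Nr1d2, which encodes REV-ERB beta, differed by 0.59 (adjusted p = 0.308) and Rorb by 0.16. Rora differed by 0.06, a sign that quantile normalization turned to -0.07 and median centring to -0.03. Of the 7 kinases, ligases and other enzymes of clock proteins measured, Usp2, a deubiquitinase, differed most, by 0.69 (adjusted p = 0.296). Csnk1d differed by -0.36, Prkaa2 by 0.36 and Fbxw11 by 0.26. Dimmer probe sets of Csnk1d differed by 0.30, 0.42, -0.10 and 0.12. Those tested of Fbxw11 differed by 0.09, -0.09 and -0.004, and those of Rorb by -0.06 and -0.04. Csnk1e, Gsk3b and Btrc differed by 0.08, 0.03 and -0.06, and the signs of Csnk1e and Gsk3b turned under quantile normalization, to -0.04 and -0.09. The 5 clock lists have 25 genes measured, of which 5 were called, all of them higher, against 0.103% of all genes called higher.

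**Figure D2:**
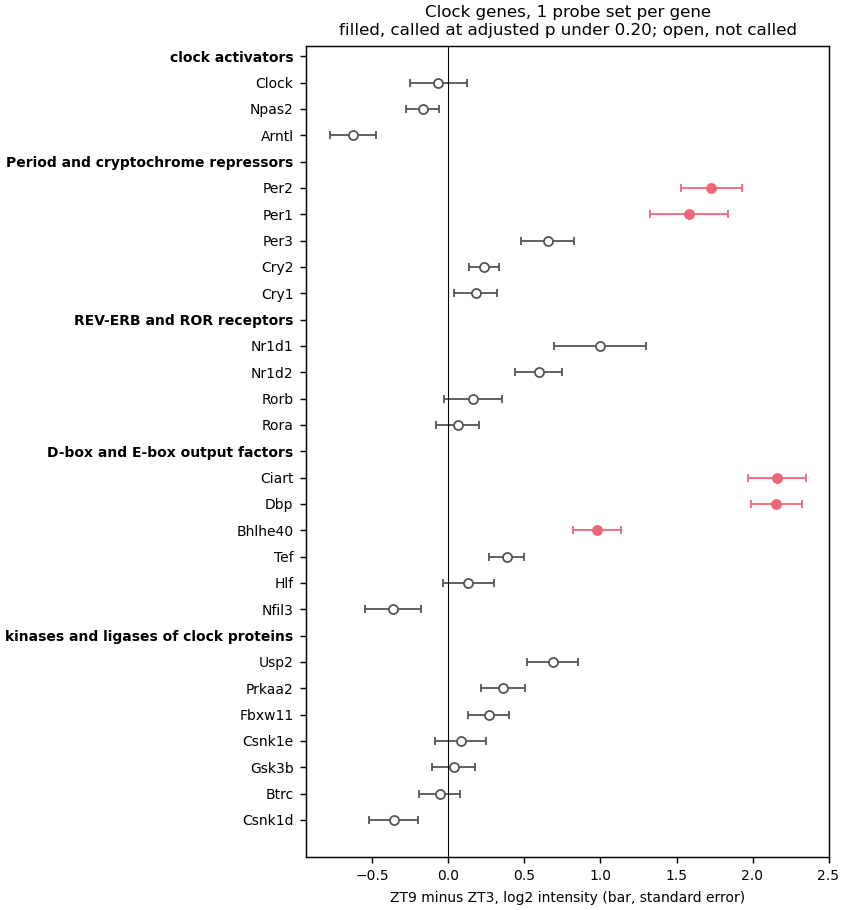
Difference ZT9 minus ZT3 in log2 intensity, with its standard error, for the 25 clock genes measured, 1 probe set per gene, grouped by role. Filled points were called at an adjusted p under 0.20 and open points were not. Ciart and Dbp lie above 2, Per2 and Per1 above 1.5, and Arntl lies at -0.63.

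The other genes that rose were not members of the clock lists. Wdr6, which encodes a WD-repeat protein that takes part in tRNA methylation, was called with both probe sets. The first read 10.20, 10.36 and 10.21 at ZT3 and 11.61, 11.22 and 11.33 at ZT9, 2.19-fold (1.83 to 2.63, adjusted p = 0.00392), and the second rose 2.27-fold with an adjusted p of 0.0465, a call lost without ZT3 replicate 2 or ZT3 replicate 3 (adjusted p up to 0.291). The groups of the first lay almost a unit apart. Sstr2, a somatostatin receptor of cortical neurons, read 7.91, 7.75 and 7.91 against 8.53, 8.85 and 8.74, 1.81-fold (1.51 to 2.17, adjusted p = 0.0453). Tspan4, a tetraspanin of the plasma membrane, rose 2.14-fold from low values of 5.24, 4.95 and 5.43 to 6.68, 6.13 and 6.10. Both calls were lost without ZT3 replicate 2 alone, where the adjusted p was 0.201 for each.

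Hrh3, the histamine receptor that also acts as an autoreceptor on histamine neurons, rose 1.51-fold (1.30 to 1.76, adjusted p = 0.114), with 8.20, 8.14 and 8.00 at ZT3 and 8.56, 8.83 and 8.74 at ZT9. Thra, thyroid hormone receptor alpha, rose 1.70-fold by 1 of its 3 tested probe sets (adjusted p = 0.155), from 8.62, 8.64 and 8.37 to 9.49, 9.25 and 9.16, while the others had differences of 0.30 and 0.16. Pik3ip1, a negative regulator of phosphoinositide 3-kinase, rose 1.74-fold (adjusted p = 0.155), from 7.92, 7.98 and 7.81 to 9.03, 8.52 and 8.54. The nearest values of the groups were 8.20 and 8.56 for Hrh3, 8.64 and 9.16 for Thra and 7.98 and 8.52 for Pik3ip1. Coq10b, a coenzyme Q binding protein of mitochondria, rose 1.79-fold (adjusted p = 0.168) and its other probe set differed by 0.46 (adjusted p = 0.377). Abcb6, an ATP-binding cassette transporter, rose 1.66-fold (adjusted p = 0.155), Klhdc8b, a kelch-domain protein, 1.64-fold (adjusted p = 0.168), and Plbd2, a lysosomal phospholipase B-like protein, 1.62-fold (adjusted p = 0.113). The other Plbd2 probe set differed by 0.05. With the replicate number as a block, the calls of 9 of the 24 probe sets were lost, among them Coq10b and Plbd2 (adjusted p = 0.275 for both), Pik3ip1 (0.278), Hrh3 and Klhdc8b (0.326 for both) and Thra (0.346). The block fit also held the ZT15 and ZT21 arrays, whose replicate numbers did not pass the pairing check described below. It is therefore not a paired test of ZT3 and ZT9, and whether the numbers pair mice is not known. Left out 1 at a time, at least 4 of the 6 mice each ended the call of Hrh3, Thra, Pik3ip1, Coq10b, Abcb6, Klhdc8b and Plbd2, with adjusted p up to 0.650.

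The probe set shared by Rbm3, a cold-inducible RNA-binding protein, and its pseudogene read 10.02, 10.03 and 10.01 at ZT3 and 10.59, 11.13 and 10.80 at ZT9. The difference of 0.82 (adjusted p = 0.193) cannot be assigned to either and was not called with the replicate number as a block (adjusted p = 0.275). Its call was also lost after quantile normalization, and without any 1 of the ZT3 mice or ZT9 replicate 2 (adjusted p up to 0.650). The 2 probe sets with no symbol rose by 0.77, a call lost without ZT3 replicate 3 (adjusted p = 0.291), and by 1.18, a call lost without ZT3 replicate 2 (0.201). The weakest call had an adjusted p of 0.193, and the first probe set outside it one of 0.2004.

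The genes that fell were led by Homer1, which encodes a scaffold of the postsynaptic density and also a short, activity-induced form. The called probe set read 10.62, 10.46 and 10.61 at ZT3 and 8.32, 7.95 and 7.87 at ZT9. The ZT9 mice lay more than 2 units below the ZT3 mice, a fall of 2.52 ± 0.17 or 5.72-fold (95% interval 4.45 to 7.35, adjusted p = 5.25e-05). The other 5 Homer1 probe sets were also lower at ZT9 but not called, with differences of -0.18, -0.29, -0.43, -0.67 and -1.66. Which transcript each probe set reads is not given in the sources used here. Nptx2, neuronal pentraxin 2, a secreted protein that clusters AMPA receptors and follows activity, read 8.80, 8.77 and 9.06 against 8.10, 7.82 and 7.53. It fell 2.09-fold (1.64 to 2.66, adjusted p = 0.0528), and its second probe set had a difference of -0.73 and an adjusted p of 0.218. The Nptx2 call was lost without ZT3 replicate 2 or ZT3 replicate 3, with adjusted p up to 0.340. The other lower calls were Gm21953, a predicted gene, which fell 2.60-fold (adjusted p = 0.0881), and Hspa5. Hspa5, the chaperone BiP of the endoplasmic reticulum, read 11.31, 11.26 and 11.06 against 10.66, 10.72 and 10.74 by the called probe set and fell 1.42-fold (adjusted p = 0.162). Its other probe sets had differences of -0.40 and -0.04. Both calls were lost with the replicate number as a block, with adjusted p of 0.275 for Gm21953 and 0.399 for Hspa5, and each was lost when any 1 of at least 4 of the 6 mice was left out.

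Below the threshold, the next probe sets with lower means included 1 of Synj2, an inositol phosphatase of synaptic and other membranes, with a difference of -0.72 (adjusted p = 0.207), and 1 of Mettl21a, a lysine methyltransferase of heat shock proteins, with -0.72 (0.231). One of Baz2b, a chromatin protein, had -0.54 (0.242), that of Pde7b, a cyclic AMP phosphodiesterase, -0.78 (0.244), 1 of R3hdm1 -0.59 (0.288) and 1 of Lsm12 -0.74 (0.292). Other probe sets of some of these genes had the opposite sign or hardly differed: the brightest of Mettl21a differed by 0.20 and that of Baz2b by 0.09, another of R3hdm1 by 0.20, and the brightest of Lsm12 by -0.08. The tested probe sets of Synj2 were all lower, by -0.29 to -0.88. The groups of the 6 probe sets, which were picked for their small p, did not overlap, as in 4.01% of all probe sets. Those of Synj2, Mettl21a, Baz2b, Pde7b and R3hdm1 had an adjusted p under 0.20 after quantile normalization.

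None of the 19 transcription factors of neuronal activity measured was called. Of these, 15 had a higher mean at ZT9 and 4 a lower one, where 70.1% of all genes had a higher mean. For 7 there was an unadjusted p under 0.05 in the higher direction and for 1 in the lower, against 11.0% and 2.12% of all genes, and the median difference was 0.73 beside 0.10 for all genes. Fos, the classic immediate early gene, read 7.54, 8.62 and 10.59 at ZT3 and 10.60, 11.24 and 10.57 at ZT9. ZT3 replicate 3 thus reached the level of the ZT9 mice while replicate 1 lay 3 units below it, and the difference of 1.89 ± 0.82 had an adjusted p of 0.418. Junb followed the same order of mice, 5.48, 7.33 and 8.47 against 8.97, 9.39 and 9.03 (difference 2.03, adjusted p = 0.380). Nr4a1, an orphan nuclear receptor, had 8.48, 8.99 and 10.10 against 10.49, 10.94 and 10.50 (1.45, adjusted p = 0.374). The spread among the ZT3 mice was therefore wide in these genes and narrow at ZT9. The smallest p of the list was that of Egr3, which had lower values at ZT9, from 11.89, 11.86 and 11.86 to 11.15, 11.46 and 11.14, a difference of -0.62 with an adjusted p of 0.296. Nr4a3 (0.95, adjusted p = 0.340) and Klf10 (0.81, adjusted p = 0.345) came next, with higher values at ZT9 and no overlap.

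**Figure D3:**
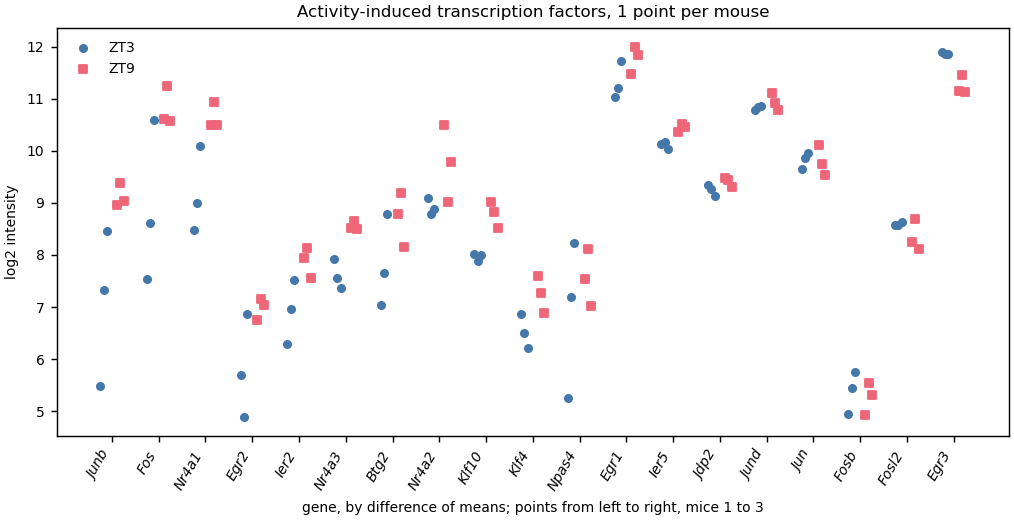
Log2 intensity of 19 activity-induced transcription factors, with the ZT3 mice as blue circles and the ZT9 mice as red squares, each group ordered from mouse 1 to mouse 3. In Junb, Fos and Nr4a1 the ZT3 mice are spread over more than 1.5 units, and in Egr3 all ZT9 mice lie below all ZT3 mice.

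The effectors of activity had no common direction. Of 20 measured, Nptx2 was called lower (0.0172% of all genes were) and none higher, 8 means were higher and 12 lower, and the median difference was -0.05 (-0.097 to -0.018 with 1 mouse left out). Arc, a cytoskeletal protein made at active synapses, read 7.26, 8.66 and 10.41 at ZT3 and 10.72, 11.25 and 10.87 at ZT9, with the same order of ZT3 mice as Fos (difference 2.17, adjusted p = 0.377). Plk2 was higher without overlap (0.50, adjusted p = 0.345). Inhba, a subunit of activin, differed by -0.48 (0.358), the prohormone convertase Pcsk1 by -0.59 (0.365) and Bdnf by -0.38 (0.406). Among 18 MAP kinase phosphatases none was called. Dusp1 differed by 1.63 (adjusted p = 0.374), with ZT3 values of 8.31, 8.67 and 9.71 and ZT9 values of 10.45, 10.88 and 10.24, Dusp6 by 0.53 and Dusp15 by 0.38.

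The genes that respond to glucocorticoids had 0 calls of 19, 5 unadjusted p under 0.05, all with higher means (11.0% of all genes), and a median difference of 0.27. The median was 0.15 without ZT9 replicate 1 and 0.14 after quantile normalization. Sgk1, a kinase induced by corticosterone, read 10.12, 10.10 and 10.09 at ZT3 and 11.10, 11.08 and 10.98 at ZT9. The mice of each time were within about 0.1 of each other, and the groups were a unit apart, yet the moderated test, which also holds the spread at ZT15 and ZT21, gave an adjusted p of 0.308. Sgk1 was called with the 6 arrays only, with array weights and without ZT9 replicate 3. In that order, these settings called 15, 6855 and 3707 probe sets. Ddit4 differed by 1.19 (7.38, 7.37 and 7.31 against 9.10, 8.46 and 8.05, adjusted p = 0.361) and Errfi1 by 0.44 (0.355). Dusp1 is a member of this list as well.

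Cholesterol synthesis had 0 calls of 21, but 11 of its genes had an unadjusted p under 0.05, all with higher means at ZT9, where 11.0% of all genes did. The median difference was 0.24 and the range over leaving out each mouse was 0.22 to 0.31, and it was 0.14 after quantile normalization. Mvk, mevalonate kinase, differed by 0.40 (6.39, 6.35 and 6.18 against 6.67, 6.71 and 6.75, adjusted p = 0.244). Sqle, squalene epoxidase, differed by 0.50 (9.09, 9.14 and 9.05 against 9.69, 9.65 and 9.43, adjusted p = 0.298), and Hmgcs1, the HMG-CoA synthase at the head of the pathway, by 0.36 (0.358). The differences were small and the groups of all 3 did not overlap. Fdps, Msmo1, Cyp51, Mvd, Nsdhl, Fdft1, Idi1 and Insig1 were the remaining 8, with differences of 0.24 to 0.44. Srebf2, which encodes the factor that drives the pathway, differed by -0.05.

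The folding machinery had no called gene by its brightest probe sets. Of 29 chaperones and stress genes of the endoplasmic reticulum, 11 means were higher and 18 lower, with a median of -0.02 (-0.088 without ZT3 replicate 3, 0.040 without ZT9 replicate 3). Hspa5 is counted here by its brightest probe set, which was not the called one. Pdia6, a disulfide isomerase whose promoter also holds the ERSE, differed by -0.39 (10.23, 9.83 and 9.68 against 9.75, 9.39 and 9.44, adjusted p = 0.379), with groups that overlap. Dnajb11, a cochaperone of BiP, differed by -0.25 (0.399). Among 21 cytosolic and mitochondrial heat shock genes, Chordc1 differed by -0.36 (0.345), Dnajb5 by 0.48 (0.374) and Dnajb4 by 0.39 (0.398), and the median was 0.04 (-0.047 without ZT9 replicate 2, 0.088 without ZT9 replicate 3). Dimmer probe sets of Dnajb4 differed by 0.04 and -0.50. Of 25 cold-inducible and splicing factors, 6 had an unadjusted p under 0.05, all higher, against 11.0% of all genes. Cirbp, the cold-inducible RNA-binding protein, read 9.42, 9.50 and 9.33 at ZT3 and 9.78, 10.13 and 9.93 at ZT9 (0.53, adjusted p = 0.242), Clk1, a kinase of splicing factors, differed by 0.66 (0.345) and Hnrnpdl by 0.40 (0.358).

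The medians of glycolysis, the respiratory chain, translation and transport lay near that of all genes. Glycolysis and glucose uptake had a median of 0.13 over 25 genes, with Slc2a1, the glucose transporter of the blood-brain barrier and astrocytes, at 0.49 (10.48, 10.50 and 10.37 against 11.02, 10.94 and 10.85, adjusted p = 0.296), Hk1 at 0.29 and Pfkl at 0.28. Of these 25 genes, 5 had an unadjusted p under 0.05, all with higher means, where 11.0% of all genes did. The 76 respiratory chain genes had a median of 0.11, led by Uqcrc2 (0.28), Atp5pb (0.25) and Cox7c (0.53), and the 41 ribosomal protein genes one of 0.09, led by Rps29 (0.27), Rps27l (0.31) and Rpl7a (0.21). Neither had an unadjusted p under 0.05, and both medians were -0.01 without ZT9 replicate 1. The aminoacyl-tRNA synthetases had a median of 0.08, with Hars at 0.25, Qars at -0.23 and Lars at 0.22, the initiation factors one of 0.15, with Eif2ak4 at 0.35, Eif2d at 0.50 and Eif4e2 at -0.31, and the proteasome one of 0.14, with Psmc2 at 0.35, Psma7 at 0.53 and Psmd6 at 0.32. Dimmer tested probe sets of Qars had the opposite sign, with 0.41 and 0.22. Those of Eif4e2 differed by -0.39, 0.45, 0.08 and -0.30, and those of Eif2d by -0.06, 0.62 and 0.06. For 136 genes of vesicle and protein transport the median was 0.12, and 15 had an unadjusted p under 0.05 with a higher mean, the same share as the 11.0% of all genes, led by Sec24d (0.64), Snx6 (0.40) and Snx10 (0.43). None of these genes was called. Without ZT9 replicate 1 the median was 0.044 for the synthetases, 0.095 for the initiation factors and 0.074 for transport, and without ZT3 replicate 3 it was 0.069 for the proteasome. Without ZT9 replicate 3 the medians of these 7 lists were 0.15 to 0.25, where that of all genes was 0.16.

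Synaptic lists gave 0 calls as well by the brightest probe sets. Of 82 potassium, calcium and sodium channel genes, 16 had an unadjusted p under 0.05 with a higher mean and 2 with a lower one, against 11.0% and 2.12% of all genes, and the median was 0.08 (0.034 without ZT9 replicate 2, 0.126 without ZT9 replicate 3). Scn3b, a sodium channel beta subunit, differed by 0.56 (8.93, 8.88 and 9.01 against 9.86, 9.31 and 9.33, adjusted p = 0.296), Kcng1 by 0.80 (0.345) and Cacna1b, the N-type calcium channel, by 0.50 (0.358). A dimmer Scn3b probe set differed by -0.0003. Of 31 glutamate receptors and scaffolds, Grik5 differed by 0.47 (0.335), Grm4 by -0.39 (0.358) and Grm5, the receptor that Homer proteins bind, by 0.33 (0.398). The 15 GABA genes had a median of 0.20 (0.118 without ZT9 replicate 1, 0.088 after quantile normalization), with Gabra5 at 0.42 (0.361), Gabrb1 at 0.41 (0.391) and Abat, which breaks GABA down, at 0.31 (0.409). The neuropeptides had a median of 0.04 (-0.046 without ZT9 replicate 1, 0.10 without ZT9 replicate 3), with Penk at 0.69 (0.365), Adcyap1 at -0.35 (0.399) and Tac1 at 0.55 (0.431). Penk and Tac1 are striatal markers too, and the mean level of those 8 markers is given above. Of 5 adenosine genes measured, Ahcy differed by 0.42 (0.374), Adk by 0.20 (0.489) and Slc29a2 by -0.16 (0.481). The dimmer Slc29a2 probe set had the opposite sign, with 0.61, and dimmer tested ones of Adk differed by -0.12 and 0.24.

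**Figure D4:**
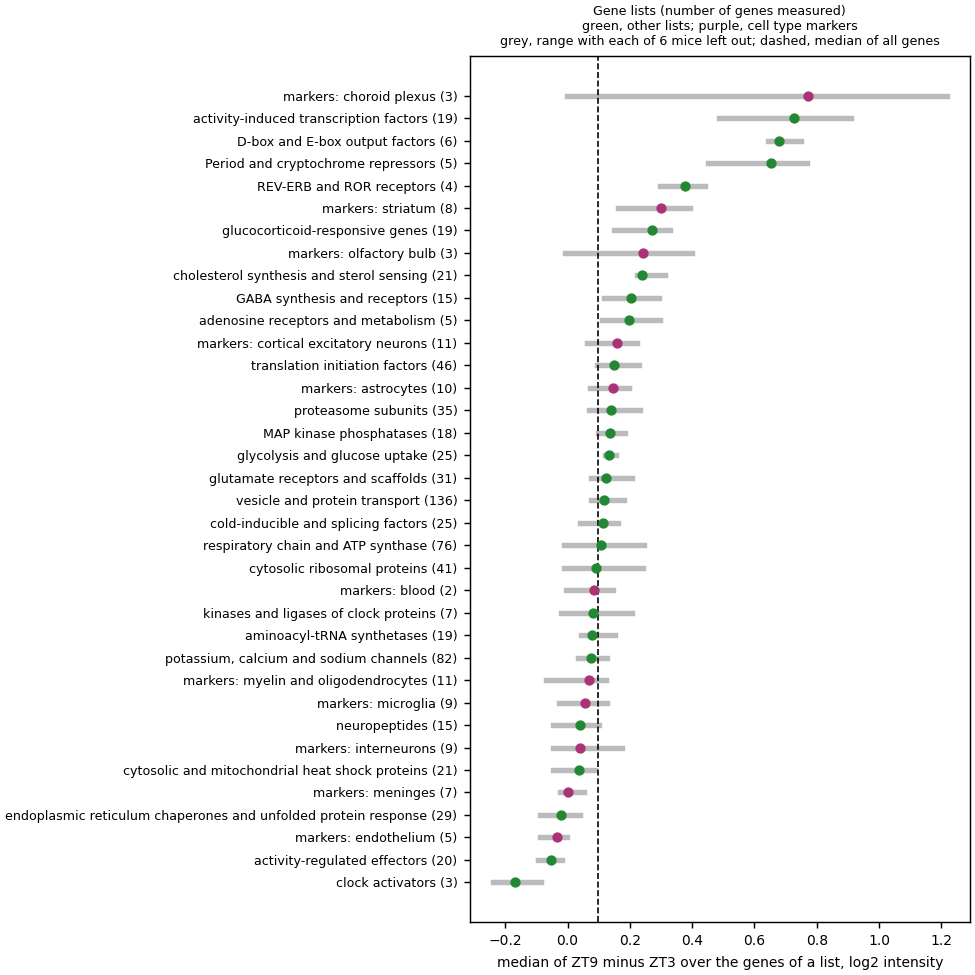
Median difference ZT9 minus ZT3 in log2 intensity over the measured genes of each of 36 lists, with the number of genes in brackets, green for other lists and purple for cell type markers. Grey bars give the range when each of the 6 mice is left out, and the dashed line is the median of all genes, 0.10. The choroid plexus markers have the widest bar, from -0.003 to 1.22, and the clock activators lie lowest at -0.17, with a bar from -0.24 to -0.085.

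The same interval in the active phase, ZT15 to ZT21, lets the rest-phase change be set beside a change that shares no mouse with it. The difference between both changes was tested in the same fit. It was called for 17 probe sets (0.0706% of those tested), 14 with the larger value in the rest phase and 3 with the smaller, and 12 of the 17 were also called between ZT3 and ZT9. Per2 rose by 1.73 from ZT3 to ZT9 and fell by 1.38 from ZT15 to ZT21 (adjusted p = 0.0777), a difference of 3.10 ± 0.28 with an adjusted p of 0.00194. Its group means were 6.28, 8.00, 9.35 and 7.97 at the 4 times, so it was highest at ZT15. Ciart differed by -0.49 in the active phase (adjusted p = 0.453), which gave a difference between phases of 2.65 ± 0.27. Neither Dbp probe set was called in the dark, with -0.22 and -0.24, and the phases differed by 2.11 and 2.40. Bhlhe40 differed by -0.68 in the dark (adjusted p = 0.261), and its phases differed by 1.66.

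Homer1 was lower at the later time in both phases, by -2.52 and -1.17 (adjusted p = 0.0725 in the dark), from group means of 10.56 to 8.04 and of 11.41 to 10.24, and the difference between phases of -1.35 had an adjusted p of 0.159. ZT9 was its lowest point of the 4. The first Wdr6 probe set read 10.52 at both dark times, and the phases differed by 1.13 (adjusted p = 0.0786). The second, brighter one read 10.93 and 11.11 in the dark and was not called for this difference (1.00, adjusted p = 0.316). ZT9 was the highest point of both. Cldn5, which encodes claudin-5 of the tight junctions of brain endothelium, had differences of opposite sign, with -0.70 in the light (9.09, 9.00 and 8.82 against 8.58, 8.32 and 7.91, adjusted p = 0.292) and a rise of 0.93 in the dark (adjusted p = 0.106). The difference of -1.63 had an adjusted p of 0.0462, and of the 5 endothelial markers measured the others, Slco1a4, Tek, Flt1 and Esam, differed from ZT3 to ZT9 by 0.40, -0.30, 0.15 and -0.03. The Cldn5 call was lost without ZT3 replicate 1 (adjusted p = 0.225). Tsc22d3, a glucocorticoid-induced gene, Ccnd2, Gpt2 and Crnkl1 were called for the difference between phases but not between ZT3 and ZT9. Without ZT21 replicate 3, 3250 probe sets were called for this difference, and all 17 remained.

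**Figure D5:**
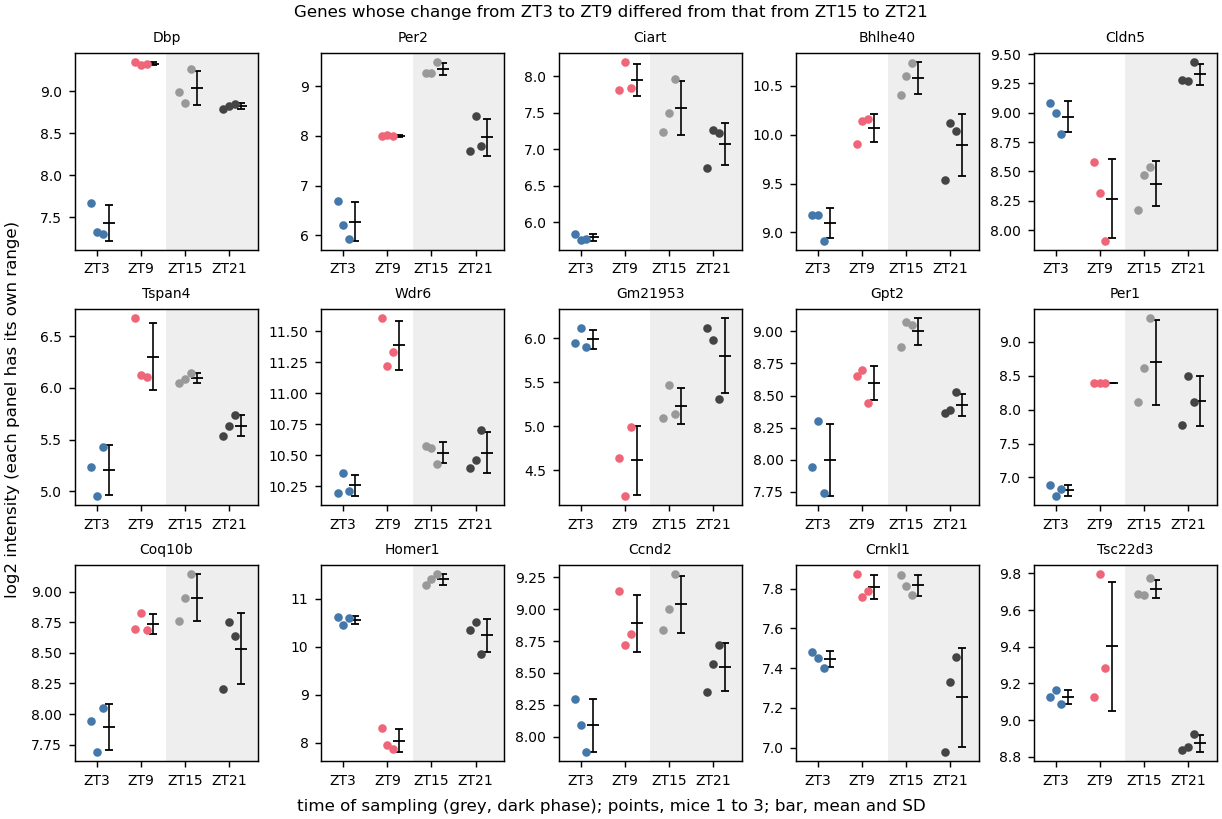
Log2 intensity at the 4 times for the 15 genes with 1 symbol called for the difference between the rest-phase change (ZT3 to ZT9) and the active-phase change (ZT15 to ZT21), with 3 mice per time as points, the mean and SD in black and the dark phase shaded. Each panel has its own range. Per2 and Bhlhe40 peak at ZT15, Homer1 is lowest at ZT9, and Wdr6 is highest at ZT9.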

How the data were processed

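RNA of the prefrontal cortex of single mice was measured on Affymetrix Mouse430_v2 arrays, 3 mice at each of 4 times. Per the study's methods the replicates are separate mice. The deposited unit is intensity: the authors obtained expression values per probe set with GCRMA in GeneSpring, on a linear scale, and took detection calls from MAS5, which are not used here. Affymetrix control probe sets (64) were left out. Of the remaining 45037, 34945 carry 1 gene symbol, and 34741 were matched to RefSeq (GRCm38.p6). Each gene was represented in lists by its brightest probe set.

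In R 4.3.3, log2 values of all 12 arrays were fitted by limma 3.58.1 (moderated test, two-sided, Benjamini-Hochberg over all probe sets tested). Adjusted p-values are limma's. Tested probe sets had a mean log2 of at least 5, and calls had an adjusted p under 0.20. The fit was tested on simulated data with independent noise in each probe set and no shift between arrays. It called 90 of 100 changes of 1, 45 of 100 changes of 0.5 and 38 of 23875 unchanged probe sets. Shifts of whole arrays are not covered by it. The genes, lists and motifs were chosen with earlier results of these data known. Genes named are up to 15 called in each direction (where fewer than 10 were called, the 10 with the smallest p), all members of the clock lists, the 3 with the smallest p of each other list and the 5 with the smallest p for rest against active phase. Cell type markers, Homer1, Hspa5 and other probe sets of called genes, and further list members, were named after their values were seen.

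Replicate numbers of ZT3 and ZT9 were checked for pairing. Deviations from the group means of same-numbered mice correlated at 0.490, 0.156 and 0.308 across probe sets, all over 0.1. Differently numbered mice of these groups also reached 0.138 and 0.136, and otherwise had -0.248, -0.394, -0.218 and -0.344. The highest r of all, 0.589, was between differently numbered mice, ZT9 replicate 1 and ZT15 replicate 3. No other pair of groups had every same-numbered r over 0.1, and the lowest was -0.500. The check therefore cannot establish that the numbers pair mice, and no source says what a number marks. The main fit did not pair mice. The alternatives were quantile normalization, median centring, no filter, a filter at a mean of 7, array weights, a robust prior that follows intensity, the replicate block, the 6 arrays only, an ordinary t-statistic, a threshold of 0.05, the mean of all probe sets of a gene and each array left out. Figures and motif counts used Python 3.11.15, pandas 2.3.3 and matplotlib 3.10.9.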

Additional observations from a re-analysis of the deposited data

Results flagged for a closer look

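The change from ZT3 to ZT9 differed from the change from ZT15 to ZT21, by the test of the difference in limma at an adjusted p under 0.05, in 6 probe sets of 5 genes. The differences (rest-phase change minus active-phase change, log2) were 3.10 for Per2, 2.65 for Ciart, 2.11 and 2.40 for the 2 Dbp probe sets and 1.66 for Bhlhe40, all clock genes. The remaining one was -1.63 for Cldn5, an endothelial gene, whose differences had opposite signs in the light and in the dark. Groups of 3 mice are too small for a check of single outlying mice.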

How the results depend on the processing

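With 3 mice per time, the number of arrays limits the precision, and the count of calls moved by over 1.5 times in most settings. The 24 calls between ZT3 and ZT9 became 94 with quantile normalization, 63 with median centring, 40 with a filter at a mean of 7, 6855 with array weights, 15 with the 6 arrays only, 12 with an ordinary t-statistic and 11 at a threshold of 0.05. They were 7 to 3707 with 1 mouse left out, with 7 without ZT3 replicate 2, 11 without ZT3 replicate 3, 102 without ZT15 replicate 3 and 3707 without ZT9 replicate 3. In 2 settings added after seeing the data, ZT9 replicate 3 was left out with quantile normalization (835 calls) or median centring (1400), and all 24 remained in both. In the replicate block fit there were 16, of which 15 were among the 24. It changed the calls named in the report and no other call among the 24. The 17 calls for rest against active phase became 26 with median centring, 7 with no filter, 41 with a filter at a mean of 7, 9244 with array weights and 7 with the replicate block. With 1 mouse left out they were 5 to 3250, with 5 without ZT3 replicate 1, 9 without ZT3 replicate 2, 7 without ZT3 replicate 3 or ZT21 replicate 1, 11 without ZT9 replicate 2 or ZT15 replicate 2, 10 without ZT21 replicate 2, 46 without ZT9 replicate 3 and 3250 without ZT21 replicate 3. With ZT9 replicate 3 left out they were 10 with quantile normalization and 29 with median centring. With each gene taken as the mean of its probe sets, the output factors had 4 calls. The Per and Cry genes, the activity effectors and cholesterol synthesis had 2 each. There was 1 call each for the activity-induced factors, clock enzymes, endoplasmic reticulum genes, splicing factors, glycolysis, glutamate receptors, and the excitatory neuron and endothelial markers. The share of all genes called this way is not given here. The cause of these shifts was not tested.

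Of the 24 probe sets, 6 kept their call in all alternatives run for single probe sets: both of Dbp, Ciart, Per2, Homer1 and 1 of Wdr6. The alternatives were refitted for the called probe sets and those named by the rule above, and not for further probe sets named beside them. Among those refitted, signs turned in 6 uncalled clock genes and in no other. With 1 mouse left out, the difference was -0.230 to 0.102 for Clock, -0.061 to 0.268 for Hlf, -0.129 to 0.014 for Btrc, -0.062 to 0.208 for Csnk1e, -0.061 to 0.111 for Gsk3b and -0.070 to 0.147 for Rora. Quantile normalization and median centring gave -0.042 and -0.0055 for Csnk1e, -0.086 and -0.052 for Gsk3b and -0.065 and -0.026 for Rora. Over the probe sets refitted, 1430 of 1715 refits kept the direction and the side of the threshold, 110 lost a call and 161 gained one. Most of these probe sets were not called in the main fit and had no call to lose, so the total does not measure how firm the calls are.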
